A study of Drosophila melanogaster with 34 samples.

Results

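R1 and R2 are the control populations of a Drosophila melanogaster selection experiment, a pair of sister populations kept under the same regime without ethanol, and their 12 arrays were chosen by that label from the 34 arrays analysed here. Each array of R1 was set against the array of R2 with the same exposure and extraction day, which gave 6 pairs. The question was how far gene expression in newly hatched larvae had come apart between populations with the same history of selection. The experiment started 6 populations from an outbred base population of wild-caught flies and kept them for more than 300 generations of 14 days. In each generation 20 to 30 adults laid eggs in each of 50 vials, and the offspring of all vials were mixed. All vials of R1 and R2 held standard cornmeal medium, all vials of the ethanol populations E1 and E2 held medium with 12% ethanol, and the variable populations M1 and M2 had vials of both kinds.

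Before the measurement, flies of every population were reared for at least 2 generations on standard medium at 25 °C. Their eggs were then covered for 15 hours with either distilled water or 18% ethanol, about 12% once mixed into the laying medium. RNA was extracted from groups of 50 to 200 first-instar larvae on 3 days, with 3 arrays for R1 and 3 for R2 in each exposure. The number that ends the exposure in each title (1, 2 or 5) was read as the day. No transgene or induced mutation is described for any population, and the labels tell R1 and R2 apart only by name. There is 1 population on each side of the comparison, each array holds a pool of whole larvae, and nothing in the labels says that arrays of a population came from separate cultures. The p-values therefore measure the spread between these RNA samples. A bulk larval sample also cannot tell more cells of a type from more RNA per cell.

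Populations bred apart come to differ through chance changes in allele frequency and through selection, even where their conditions are the same. Heritable differences in transcript level are common among laboratory and wild strains of this species, and the enzymes that handle foreign chemicals are a well-known source of them. Cytochrome P450s oxidise such chemicals, and glutathione S-transferases and UDP-glycosyltransferases attach groups that make the products soluble. Many of these genes stand in tandem clusters of close copies.

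The array values are log2 expression per probe set, made by the authors with GCRMA, so a difference of 1 is a 2-fold difference. The 12 control arrays had medians of 3.89 to 3.99, and on each of them 9273 to 9378 of 18769 probe sets read at least 4, the level used here for detection. Pairwise correlations between the 12 arrays lay between 0.948 and 0.993, and no pair of arrays was identical. The array of ethanol-exposed R2 larvae of day 1 stood apart, with a mean correlation with the other control arrays of 0.962 against 0.976 to 0.981 for the rest. The ethanol and variable regimes carry a label problem on day 5. Cyp12d1-d read 2.55 to 3.12 on the libraries labelled E1 of days 1 and 2 but 7.34 and 7.39 on those of day 5, and 7.32 to 9.12 on the libraries labelled M1 of days 1 and 2 but 2.82 and 3.07 on those of day 5. Levels of the E and M populations are therefore given from days 1 and 2, as plain means of the arrays. On these days M1 lacks the water array of day 2 and M2 the ethanol array of day 1. Their means thus mix the exposures unequally. The R arrays showed no such break.

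Of 9588 probe sets that read at least 4 on at least 3 of the 12 arrays, 750 differed between R1 and R2 (7.82%; limma with the pair as a block, Benjamini-Hochberg adjusted p under 0.05). R1 was higher for 397 of them (4.14% of those tested) and R2 for 353 (3.68%). With 1 probe set per gene, 611 of 7950 genes differed (7.69%), 335 higher in R1 and 276 higher in R2. The median size of the 750 differences was 0.56 on the log2 scale, or 1.48-fold, and 125 exceeded 2-fold, of which 60 were higher in R1 and 65 in R2. The sign was the same in 6 of 6 pairs for 697 of the 750, beside 1439 of all probe sets tested (15.0%). The 6 arrays of R1 did not overlap the 6 arrays of R2 for 235 of the 750, beside 261 of all probe sets tested (2.72%). The median difference over all probe sets tested was 0.002. The count moved with the days: it was 509 without day 1, 272 without day 2 and 373 without day 5. It was 822 without the pair that holds the ethanol-exposed R2 array of day 1, 493 without the water pair of day 1 and 474 without the ethanol pair of day 2. The 2 pairs of day 1 alone gave 0 calls by limma, with 926 probe sets at an unadjusted p under 0.05, those of day 2 gave 1093 calls and those of day 5 gave 401. Without the pairing the count was 401.

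**Figure D1:**
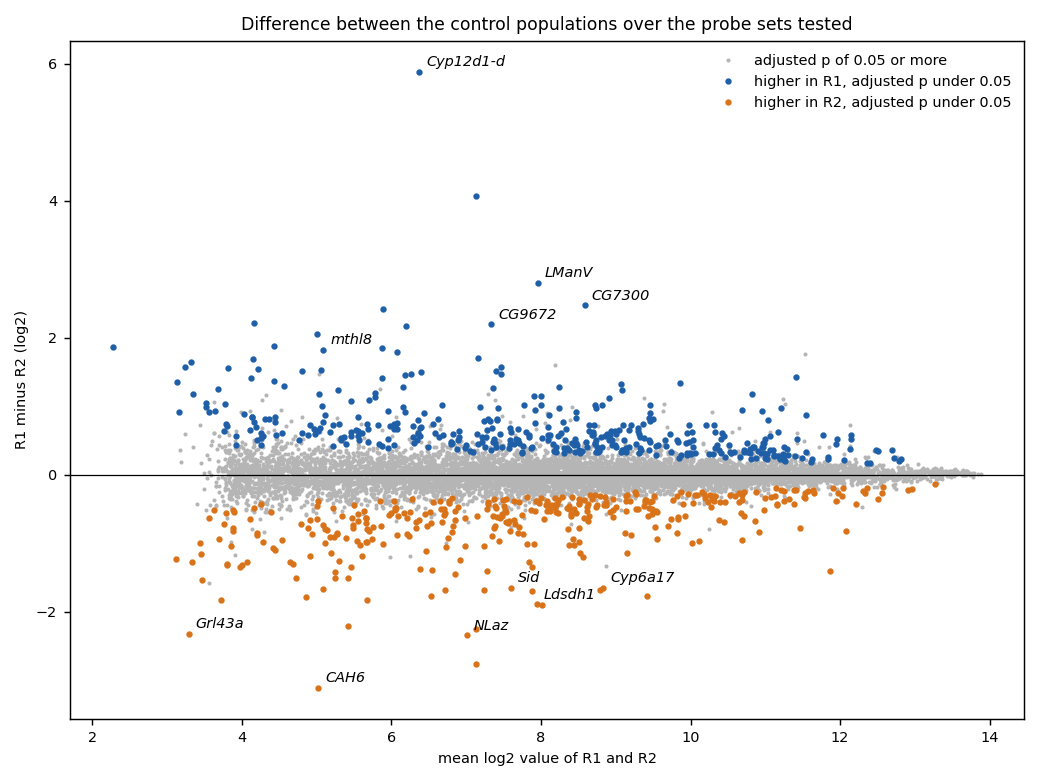
Difference between the control populations (R1 minus R2, log2, mean of both exposures) against the mean log2 value of R1 and R2 for the 9588 probe sets tested. Blue points are the 397 probe sets higher in R1 and orange points the 353 higher in R2 at adjusted p under 0.05; Cyp12d1-d lies far above the rest with a difference of 5.89.

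The largest difference of all was in Cyp12d1-d, a mitochondrial P450 that foreign chemicals induce and that has been tied to insecticide resistance. In R1 it read 8.66, 8.90 and 9.41 in water on days 1, 2 and 5 and 10.18, 9.73 and 9.00 in ethanol. In R2 it read 2.17, 2.79 and 4.08 in water and 4.61, 4.11 and 2.79 in ethanol. Every R1 array was thus far above every R2 array, and 3 of the 6 R2 arrays lay below the detection level. The difference was 5.89 ± 0.15 (limma standard error, as for all errors given as ± beside a difference), with an adjusted p of 2.6e-08. Values below the detection level depend on the estimate of background, so a difference that reaches into them is not exact. With each value below 4 set to 4, R1 was at least 36.3-fold higher. Cyp12d1-p is a near-identical copy of the gene, and a further probe set that lists both copies averaged 9.17 ± 0.54 in R1 and 5.10 ± 0.50 in R2 (SD, n = 6), a difference of 4.07 ± 0.21 (adjusted p = 6.71e-06). The array cannot divide this signal between the copies.

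CG7300, mthl8, Cluap1, CG7695 and CG32379, were among the 12 genes with the largest R1 excess of those higher in 6 of 6 pairs. Try29F (2.43 ± 0.65, adjusted p = 0.0492) and CG15772 (2.22 ± 0.40, adjusted p = 0.00732) were called with differences as large but higher in R1 in 5 of 6 pairs, and are named here after their values were seen. CG7300 read 9.17 to 10.25 in R1 and 6.36 to 8.02 in R2, without overlap, a difference of 2.48 ± 0.16 (5.58-fold, adjusted p = 2.58e-05). The gene mthl8, a member of the methuselah family of G protein-coupled receptors, read 5.57, 5.84 and 6.18 in water and 6.26, 5.52 and 6.62 in ethanol in R1. In R2 it read 2.54, 4.19 and 4.74 in water and 4.30, 3.96 and 5.31 in ethanol. All R1 arrays exceeded all R2 arrays, by 1.82 ± 0.20 on average (adjusted p = 0.000531). A further mthl8 probe set differed by 1.51 ± 0.22 in the same direction (adjusted p = 0.00228). Cluap1, a component of the transport machinery of cilia, read 4.49 to 5.93 in R1 and 3.09 to 3.99 in R2. Every R2 array lay below the detection level, and the difference was 1.69 ± 0.22 (adjusted p = 0.00108). CG7695 read 3.65 to 4.43 in R1 and 2.15 to 2.82 in R2, below the detection level on every R2 array (1.57 ± 0.15, adjusted p = 0.000198). Cluap1 and CG7695 thus passed the filter on low values through R1 arrays alone, and their differences are not exact. For CG7695 most of the difference lies below the detection level. CG32379 was higher in R1 by 2.06 ± 0.26 (adjusted p = 0.000978), with overlapping ranges of 4.18 to 7.43 and 2.76 to 5.12, and both populations read lower in ethanol.

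The other 6 of these 12 were LManV, CG9672, LManIII, Drsl2, CG17191 and Daao2, and levels or differences of several of them moved with exposure or day. Daao2, a D-amino acid oxidase, read 6.78 to 7.59 in R1 and 3.67 to 6.40 in R2, without overlap (1.50 ± 0.27, adjusted p = 0.0071), but lost its call without day 2 (adjusted p = 0.0559) and without day 5 (0.0728). Drsl2, of the Drosomycin-like antimicrobial peptides, read between 1.24 and 1.53 on all 6 R2 arrays and 4.10 to 4.94 on the R1 water arrays. Every R2 array lay below the detection level, and R1 averaged 3.21 over both exposures, also below it. The probe set passed the filter on low values through the R1 water arrays, so its difference is not exact. Its difference of 1.87 ± 0.42 (adjusted p = 0.0222) did not pass without day 1, 2 or 5 (adjusted p = 0.061, 0.0581 and 0.106). CG17191, of the lipase family, differed by 1.52 ± 0.34 (adjusted p = 0.0235), which did not pass without day 2 (0.0838) or day 5 (0.0917). CG9672 differed by 2.20 ± 0.28 (adjusted p = 0.000977), with R1 at 6.56 to 10.02 and R2 at 3.48 to 8.92.

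CAH6, a carbonic anhydrase, was higher in R2. In R1 it read 2.55, 3.77 and 3.07 in water and 3.88, 4.05 and 3.46 in ethanol, and in R2 it read 6.58, 6.42 and 6.19 in water and 6.70, 6.50 and 7.05 in ethanol. The groups were separated by more than 2 log2 units, and 5 of the 6 R1 arrays lay below the detection level. The difference was -3.11 ± 0.20 (adjusted p = 2.58e-05), and with each value below 4 set to 4 R2 was at least 5.92-fold higher. NLaz encodes Neural Lazarillo, a secreted lipocalin with roles in stress resistance and metabolism. It read 6.06, 6.26 and 5.53 in water and 5.42, 5.79 and 5.92 in ethanol in R1, against 7.74, 8.13 and 8.51 and 7.93, 8.02 and 8.73 in R2. Its arrays did not overlap either, and the difference was -2.35 ± 0.17, 5.08-fold (adjusted p = 4.13e-05). Grl43a, a gustatory receptor-like gene, read 1.89 to 2.29 in R1, below the detection level on all 6 arrays, and 3.90 to 4.83 in R2, at or above it on 5. The difference was -2.32 ± 0.15 (adjusted p = 2.58e-05), and with each value below 4 set to 4 R2 was at least 1.38-fold higher. Most of the difference thus lies below the detection level.

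The next genes higher in R2 were also cleanly separated. Ldsdh1, a dehydrogenase of lipid droplets, read 6.26 to 7.78 in R1 and 8.49 to 9.12 in R2 (-1.89 ± 0.14, adjusted p = 6.14e-05). CG10916 read 4.42 to 5.21 in R1 and 6.21 to 7.11 in R2 (-1.83 ± 0.14, adjusted p = 8.93e-05). CG11617 read 6.70 to 7.67 in R1 and 8.50 to 8.83 in R2 (-1.70 ± 0.14, adjusted p = 9.57e-05). Sid, a stress-induced nuclease, was among the 5 genes with the smallest p-values, with 5.90 to 7.43 in R1 and 7.83 to 9.09 in R2 (-1.65 ± 0.11, adjusted p = 3.25e-05). The long noncoding RNA lncRNA:CR43126 read 3.58 to 5.16 in R1 and 6.19 to 6.93 in R2 (-2.21 ± 0.22), and CG18417 read 4.40 to 6.31 and 6.68 to 8.27 (-1.77 ± 0.18). For none of these 6 genes did the R1 and R2 arrays overlap. Of the remaining 4 of the 12 largest, GstD5 is described with its family. Alp7, an alkaline phosphatase, differed by -1.90 ± 0.33 (adjusted p = 0.0063) but not past the threshold without day 2 (0.0587), and CG14219 differed by -1.68 ± 0.23 with overlapping ranges of 3.74 to 8.34 and 5.15 to 9.56. CG14852 differed by -1.77 ± 0.40 (adjusted p = 0.0222), and lost its call without day 2 (0.121) and without day 5 (0.109).

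**Figure D2:**
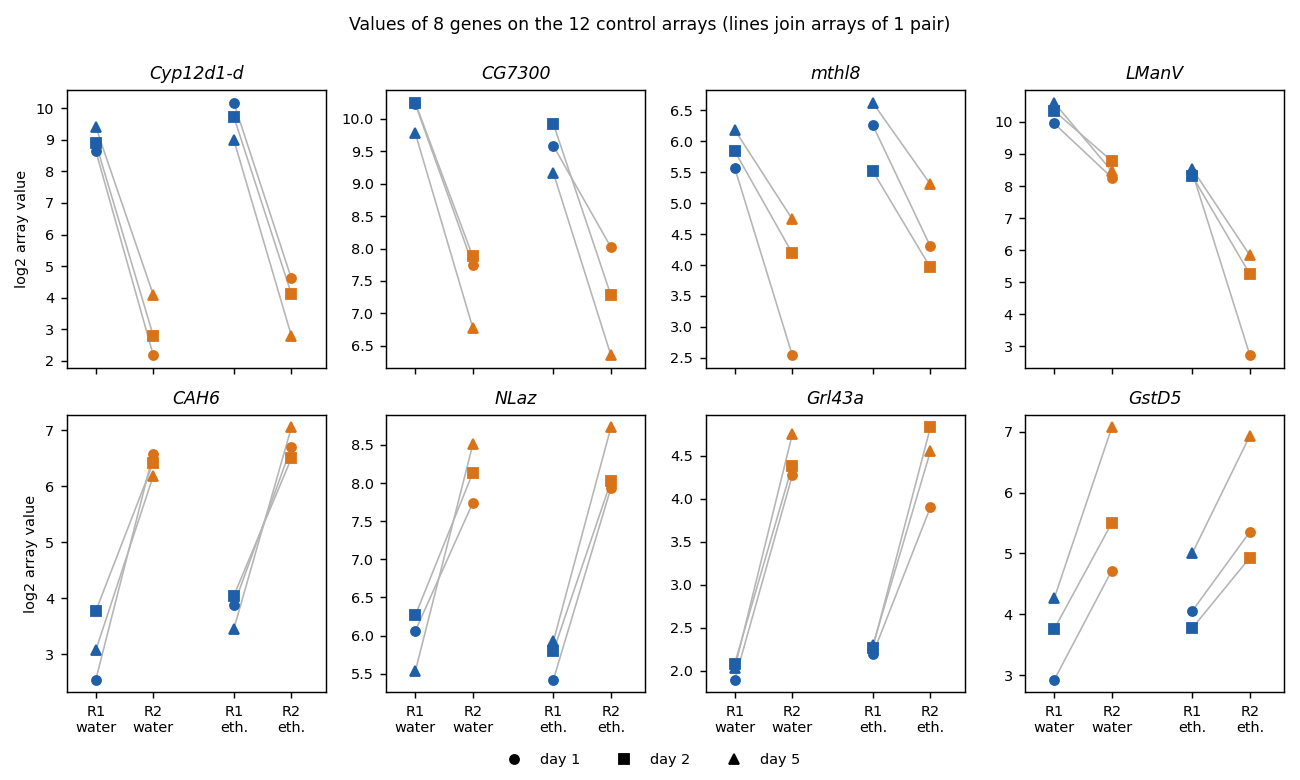
Log2 array values of 8 genes on the 12 control arrays, by population and exposure, with a symbol for each extraction day and a line joining the arrays of each pair. R1 (blue) lies above R2 (orange) in every pair for Cyp12d1-d, CG7300, mthl8 and LManV, and below it in every pair for CAH6, NLaz, Grl43a and GstD5.

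Genes of the P450 family differed between R1 and R2 in both directions. Of 81 P450 genes on the array 58 were tested and 15 were called (25.9%, beside 7.69% of all genes), 10 higher in R1 and 5 higher in R2. The median difference over the 58 was -0.02, beside 0.003 over all genes, 27 of the 58 were higher in R1, and the median size was 0.189 beside 0.1. Cyp6w1 read 11.43 to 11.91 in R1 and 10.07 to 11.29 in R2 (0.98 ± 0.10, adjusted p = 0.000274). Cyp6a2, which like Cyp12d1-d has been tied to DDT resistance, was higher in R1 by 0.64 ± 0.09 (adjusted p = 0.00179) and Cyp4d14 by 1.29 ± 0.21 (adjusted p = 0.00489). Cyp4e1 was higher in R2, at -0.95 ± 0.18 (adjusted p = 0.0106). Smaller differences toward R1 were called for Cyp310a1 (0.72), Cyp4d2 (0.51), Cyp305a1 (0.42), Cyp28d1 (0.41) and Cyp12a4 (0.38). The family count was 15 without day 1, 10 without day 2, 10 without day 5 and 19 without the pair of the ethanol-exposed R2 array of day 1, while the share over all genes was 5.17%, 2.68%, 3.67% and 8.50%.

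The remaining 5 called P450 genes lie in 1 tandem cluster, and they did not all differ in the same direction. In the order of the RefSeq gene table, which was looked up after the values were seen, the cluster holds Cyp6a22, Cyp6a17, Cyp6a23, Cyp6a19, Cyp6a9, Cyp6a20, Cyp6a21 and Cyp6a8. Cyp6a17, which influences temperature preference in flies, read 7.25 to 8.62 in R1 and 9.17 to 10.13 in R2 (-1.65 ± 0.16, adjusted p = 0.000218). Cyp6a19, Cyp6a9 and Cyp6a21 were also higher in R2, by -0.83 ± 0.09, -1.04 ± 0.12 and -1.01 ± 0.11, each in 6 of 6 pairs. Cyp6a8, at the end of the row beside Cyp6a21, was higher in R1 in 6 of 6 pairs (0.83 ± 0.09, adjusted p = 0.000458). Between them, Cyp6a23 averaged 9.95 and 9.84 (0.11 ± 0.12, adjusted p = 0.682) and Cyp6a20 averaged 9.34 and 9.44 (-0.10 ± 0.07, adjusted p = 0.444). Cyp6a22 did not pass the filter on low values. These genes are close copies, so some probe sets may read more than 1 of them.

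The glutathione S-transferases also differed in both directions. Of 32 tested, 8 were called (25%, beside 7.69% of all genes), 6 higher in R1 and 2 higher in R2, with a median difference of 0.10. The largest was GstD5, which read 2.92, 3.76 and 4.26 in water and 4.06, 3.77 and 5.00 in ethanol in R1, against 4.72, 5.50 and 7.07 and 5.35, 4.93 and 6.93 in R2. R2 exceeded R1 in all 6 pairs although the ranges overlap, and both populations read highest on day 5 (-1.79 ± 0.19, adjusted p = 0.000444). GstD5 stands in a tandem cluster of 11 GstD genes, where GstD2 (0.60 ± 0.08) and GstD8 (0.51 ± 0.13) were higher in R1 and 7 others were tested and not called. In the GstE cluster, GstE7 was higher in R2 (-1.28 ± 0.15, adjusted p = 0.000796), GstE3 higher in R1 (0.37 ± 0.09, adjusted p = 0.034), and 7 others were tested and not called. GstO3 read 11.56 to 11.83 in R1 and 10.78 to 11.34 in R2 (0.52 ± 0.06, adjusted p = 0.00078). The family count was 5 without day 1 (15.6%), 5 without day 2 (15.6%) and 6 without day 5 (18.8%). Over all genes the shares were 5.17%, 2.68% and 3.67%.

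Of 27 UDP-glycosyltransferases tested, 5 were called (18.5%, beside 7.69% of all genes), 4 higher in R1 and 1, Ugt36A1, higher in R2. Ugt49B1 was clearest, with 11.22 to 11.64 in R1 and 9.76 to 10.88 in R2 (1.18 ± 0.10, adjusted p = 0.000115), and its arrays did not overlap. The other 4 calls were weaker, and the count was 3 without day 1 (11.1%), 1 without day 2 (3.7%) and 3 without day 5 (11.1%). Over all genes the shares were 5.17%, 2.68% and 3.67% without day 1, 2 and 5. Of 16 esterases and juvenile hormone enzymes 6 were called (37.5%), 5 higher in R1, among them Est-Q (0.63 ± 0.12) and Jheh2 (0.56 ± 0.10). Their count was 2 without day 1 (12.5%) and 1 each without day 2 and without day 5 (6.25% each). Of 21 loci linked to insecticide resistance, a list that shares 5 called genes with the P450 family, 8 were called (38.1%), with 4 (19%) when any of the 3 days was left out.

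Genes of lipid synthesis were higher in R1 wherever they were called. Of 17 tested, 4 passed (23.5%, beside 7.69% of all genes). Agpat2, an acyltransferase that makes phosphatidate, read 10.34 to 11.06 in R1 and 9.79 to 10.32 in R2, a difference of 0.72 ± 0.07 (adjusted p = 0.000202). Dgat2, a diacylglycerol acyltransferase, differed by 1.18 ± 0.22, Lpin, the phosphatidate phosphatase lipin, by 0.36 ± 0.08, and mdy, which encodes the enzyme DGAT1, by 0.30 ± 0.07. Other acyltransferases on the list were not called, with Gpat4 at 0.22, Agpat3 at -0.04 and Agpat4 at 0.01. The median over the 17 was 0.02. Their count was 3 without day 1 (17.6%), 1 without day 2 (5.88%) and 2 without day 5 (11.8%), so Agpat2 alone held throughout these. Over all genes the shares were 5.17%, 2.68% and 3.67%. Dgat2 lost its call without day 2 (adjusted p = 0.106) and without the pairing (0.363), Lpin without day 2 (0.088), day 5 (0.159) and the pairing (0.304), and mdy when any of the 3 days was left out. Of 16 lipases, 3 were called (18.8%), all higher in R1, with CG6283 at 1.47 ± 0.20 and Lip1 at 0.70 ± 0.12 beside CG17191. CG6283 lost its call without the pairing (0.186) and in a fit of all 34 arrays (0.0524), and Lip1 without day 5 (0.0658). The lipase count was 5 without day 1, 2 without day 2, 1 without day 5 and 7 without the pair of the ethanol-exposed R2 array of day 1.

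The alpha-mannosidases encoded by the LMan genes remove mannose from glycoproteins, and 4 of them lie side by side. LManV read 9.95, 10.34 and 10.60 in water and 8.42, 8.31 and 8.53 in ethanol in R1, and 8.27, 8.78 and 8.46 in water and 2.73, 5.25 and 5.84 in ethanol in R2. R1 was higher in every pair and the exposures fell apart within each population, so the overall ranges overlap (2.80 ± 0.44, 6.98-fold, adjusted p = 0.00373, and 0.055 with robust moderation). LManIII differed by 1.88 ± 0.37 (adjusted p = 0.0108, and 0.0563 without day 2 and 0.132 in a fit of all 34 arrays). LManVI averaged 12.42 in R1 and 10.66 in R2, higher in 6 of 6 pairs without passing the test (1.76 ± 0.62, adjusted p = 0.123), and LManIV was not tested. In a separate place, LManII differed by 0.72 (adjusted p = 0.00875) and LManI by 1.09 (adjusted p = 0.0974). Of 28 genes on a list of digestive serine peptidases 3 were called (10.7%, beside 7.69% of all genes), all higher in R1. They were CG17738 (0.79 ± 0.10, adjusted p = 0.00111), CG17739 and Jon66Cii. Whether CG17738, CG17739 and the uncalled CG17734 are peptidases was not checked, so the count describes the list and not the family. Their count was 7 without day 1, 1 without day 2, 1 without day 5 and 7 without the pair of the ethanol-exposed R2 array of day 1. The mean value of the 28 lay between 10.6 and 11.0 on the R1 arrays and between 9.55 and 10.9 on the R2 arrays.

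Genes of immunity, chemosensation and cuticle gave scattered calls. Of 25 antimicrobial and immune-induced genes 3 were called (12%), all higher in R1. Without day 1, 2 and 5 the count was 2, 1 and 0 (8%, 4% and 0%, beside 5.17%, 2.68% and 3.67% of all genes). Of the 25 genes, called or not, 16 were higher in R1. Drsl5, of the same family as Drsl2, was higher in R2 in 6 of 6 pairs without passing (-1.58 ± 0.51, adjusted p = 0.0957). It averaged 2.77 in R1, below the detection level. PGRP-SC2, a peptidoglycan-cleaving amidase of the gut, differed by 1.35 ± 0.20 (adjusted p = 0.00255, and 0.0536 without day 5), and Rel, the NF-kappaB factor of the Imd pathway, by 0.34 ± 0.07 (adjusted p = 0.0117, and 0.124 without day 2). Of 25 odorant-binding proteins 6 were called (24%), 2 higher in R1 and 4 in R2. Obp47a read 8.05 to 8.63 in R1 and 6.93 to 7.47 in R2 (1.02 ± 0.09, adjusted p = 0.000135), and Obp47b read 2.42 to 3.30 in R1 and 3.62 to 4.30 in R2 (-1.27 ± 0.16, adjusted p = 0.000819), each without overlap. Obp47b lay below the detection level on every R1 array and averaged 3.97 in R2, so its difference is not exact. The count was 4 without day 1 (16%), 3 without day 2 (12%) and 5 without day 5 (20%). Of 66 cuticle proteins 5 were called (7.58%, close to the 7.69% of all genes), with Cpr49Ac at 0.99 ± 0.15 as the largest.

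Further groups gave between 1 and 4 calls. Hsc70-2, a gene of the Hsp70 family of chaperones, read 2.95 to 3.70 in R1 and 4.05 to 5.00 in R2 (-1.35 ± 0.14, adjusted p = 0.000321), the 1 call among 15 chaperone genes (6.67%) with 1 probe set per gene. All its R1 values lay below the detection level, so its difference is not exact. A further probe set of l(2)efl, a small heat shock protein gene, was higher in R1 by 0.66 ± 0.11 (adjusted p = 0.00534), while the set that stands for the gene differed by 0.25 ± 0.08 (adjusted p = 0.102). TpnC41C, a muscle troponin C, was higher in R1 (0.84 ± 0.10, adjusted p = 0.000819), alone among 14 muscle markers, all of which were tested. That share, 7.14%, was close to the 7.69% of all genes. UQCR-11, a subunit of respiratory complex III, was the 1 call among 54 genes of oxidative phosphorylation (-0.63 ± 0.10, adjusted p = 0.00381, and 0.0581 without day 2). This was 1.85% of the list, below the share of all genes. Of 12 haemocyte markers 4 were called (33.3%, beside 7.69% of all genes), 3 higher in R1 and 1 in R2, with Pxn at 0.59 ± 0.10 and Hml at -0.74 ± 0.14. Pxn did not pass without day 2 (0.0801) or the pairing (0.224), and Hml did not pass without day 2 (0.0879) or day 5 (0.095). The count was 2, 1 and 1 without day 1, 2 and 5. The mean of the 12 ranged from 7.76 to 8.35 over the R1 arrays and from 7.50 to 8.28 over the R2 arrays. Of 14 neuron markers 3 were called (21.4%, beside 7.69% of all genes), all higher in R2, with 2, 1 and 1 without day 1, 2 and 5. Of the 14, 4 were higher in R1, among them brp in 6 of 6 pairs without passing (0.41 ± 0.13, adjusted p = 0.0806). Appl, an amyloid precursor-like protein, differed by -0.35 ± 0.05 (adjusted p = 0.00146, and 0.266 without the pairing), Sh, a potassium channel gene, by -0.51 ± 0.10 (adjusted p = 0.0137, and 0.112 without day 2), and Snap25, a gene of vesicle fusion, by -0.25 ± 0.06 (adjusted p = 0.0278, and 0.154 without day 1). A further Sh probe set was called at -0.72 (adjusted p = 0.0222), and further Sh sets at -0.18, 0.09 and -0.20 were not. The mean of the 14 ranged from 8.57 to 9.16 in R1 and from 8.59 to 9.31 in R2. The part of either cell type in the other differences was not tested.

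Several groups gave no call between R1 and R2 by limma. At an unadjusted p under 0.05 lay 1658 of all 7950 genes (20.9%), and beside them 4 of 32 cytosolic ribosomal proteins, 1 of 13 genes of glycolysis, 2 of 17 genes of oxidative stress and metal handling, 3 of 14 genes of ecdysone signalling and moulting and 3 of 15 genes of small RNA pathways. The same held for 3 of 13 tracheal and epidermal markers, 1 of 11 genes of DNA replication and 3 of 9 genes of embryonic patterning. Direction was uneven in some of these lists. R1 was higher for 2 of the 15 small RNA genes (median -0.229, beside 0.003 over all genes) and 3 of the 14 ecdysone genes (-0.097). For the cytosolic ribosomal proteins it was higher in 23 of 32 (median 0.019). Direction within a list was not tested. Markers of the fat body and germ line and the chemoreceptors had 5 or fewer tested genes each and no call, with 2 at an unadjusted p under 0.05 in each list. Lists with 1 call each were 11 maltases and amylases (Mal-A8, -0.78), 2 lysozymes (LysP, 0.62), 13 Jonah peptidases (Jon66Cii, 1.00), 5 salivary gland markers (PH4alphaSG2, -0.78) and 19 genes of the response to starvation (sug, 0.46). In this order the shares were 9.09%, 50%, 7.69%, 20% and 5.26%, beside 7.69% of all genes. Each of these 5 calls was lost without day 2 and without day 5. Without day 1, and likewise without the pair of the ethanol-exposed R2 array of day 1, the Jonah peptidases had 4 calls and the maltases and amylases 3. Of 71 mitochondrial ribosomal proteins 3 were called (4.23%). Of 11 enzymes of ethanol metabolism tested, Aldh-III alone was called (9.09%, beside 7.69% of all genes; 0.28 ± 0.06, adjusted p = 0.0261), and it did not pass when any of the 3 days was left out (adjusted p = 0.146, 0.089 and 0.0656). CG31075 differed by 0.43 ± 0.28 and Cat, catalase, by 0.39 ± 0.13 without passing. The alcohol dehydrogenase genes Adh and Adhr share 2 probe sets, which differed by 0.15 ± 0.13 (adjusted p = 0.586) and -0.03 ± 0.04 (adjusted p = 0.721). The second of these read 13.58 to 13.93, near the highest value of any probe set on these arrays (13.83 to 13.95). Most of the cytosolic ribosomal proteins also read near that value, such as RpS18 at 13.705 in R1 and 13.656 in R2. AcCoAS, the acetyl-CoA synthase, averaged 12.27 in both populations (0.00 ± 0.06).

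**Figure D3:**
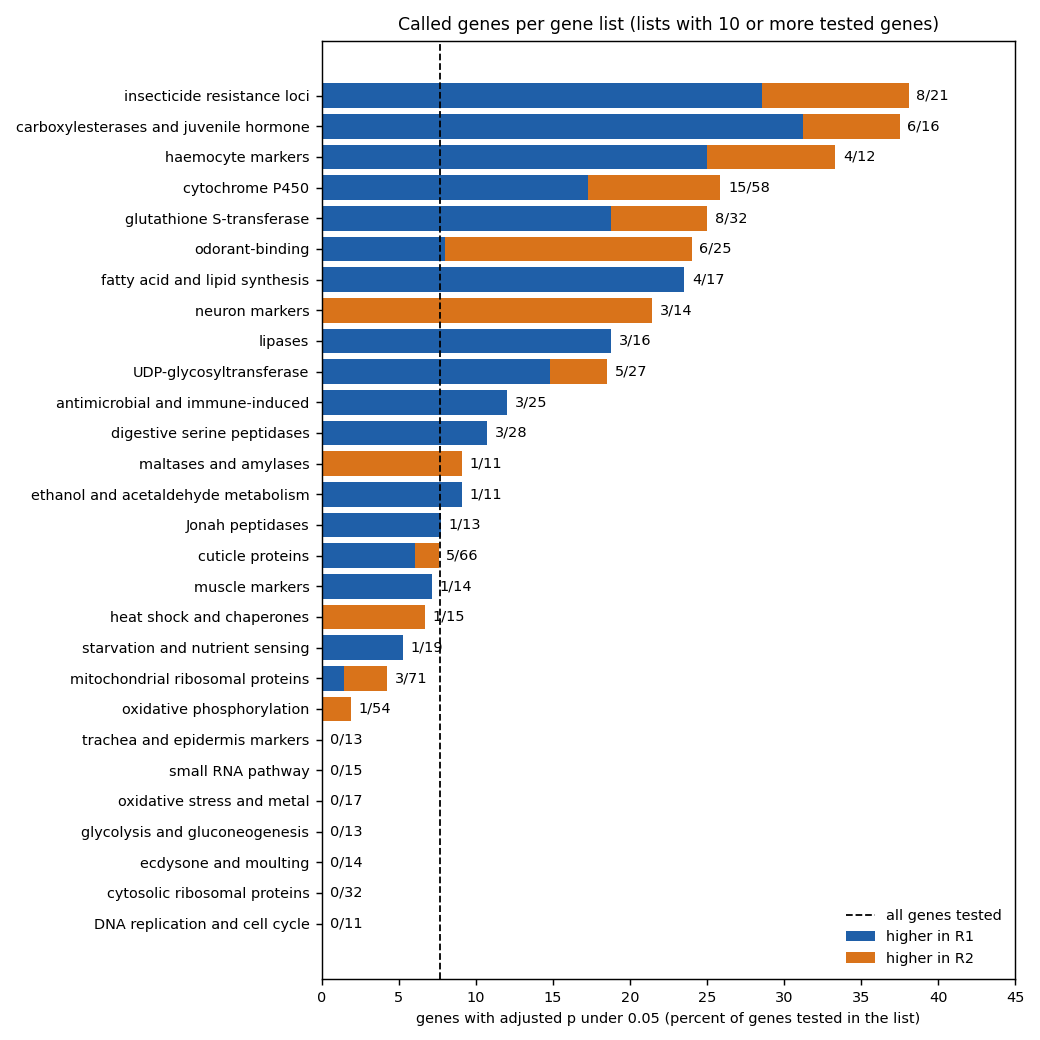
Share of tested genes called between R1 and R2 at adjusted p under 0.05, for each gene list with 10 or more tested genes, with the counts at the bar ends. Blue is higher in R1 and orange higher in R2, and the dashed line marks the 7.69% of all genes. Insecticide resistance loci, esterases and juvenile hormone enzymes, haemocyte markers, P450s and glutathione S-transferases are among the lists above it. Cytosolic ribosomal proteins, many of them near the highest array values, glycolysis and oxidative stress are among those at 0.

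The difference between R1 and R2 was also measured within each exposure. In water-exposed larvae 232 probe sets differed (2.42%) and in ethanol-exposed larvae 427 (4.45%), with 166 called in both and none of these in opposite directions. All 750 probe sets called over both exposures had the same sign in water and in ethanol, which their selection on the mean favours. The counts were 149, 53 and 57 in water and 185, 169 and 91 in ethanol without day 1, 2 and 5, and the ethanol count was 271 without the pair of the R2 array that stood apart. With each exposure fitted alone the counts were 398 in water and 172 in ethanol, so their order turned. The test of whether the difference itself changed with exposure called 0 of 9588 probe sets (0%, limma), while 573 had an unadjusted p under 0.05 (5.98%). Without day 2 this test called 1 probe set, that of CG14852. Cyp12d1-d differed by 5.97 ± 0.22 in water and 5.80 ± 0.22 in ethanol, and CAH6 by -3.27 and -2.95.

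The smallest p-values of the interaction belonged to CG14852, LManIII, Drsl2, CG34278 and CG12115, and none passed. CG14852 read 10.58, 10.47 and 9.90 in water and 7.02, 6.91 and 6.28 in ethanol in R1, and 10.84, 11.34 and 10.61 in water and 10.58, 9.05 and 9.39 in ethanol in R2. The populations were thus close in water (-0.61 ± 0.23) and apart in ethanol (-2.94 ± 0.23), an interaction of -2.32 ± 0.32 (adjusted p = 0.212). LManIII went the other way, with R1 at 7.91, 8.23 and 9.36 and R2 at 4.79, 5.38 and 6.47 in water, and all 6 ethanol arrays between 1.08 and 2.79. Its difference was 2.96 ± 0.21 in water and 0.81 ± 0.21 in ethanol (adjusted p = 0.212), and the ethanol values lie below the detection level. LManV differed by 1.79 ± 0.45 in water and 3.81 ± 0.45 in ethanol (adjusted p = 0.781).

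**Figure D4:**
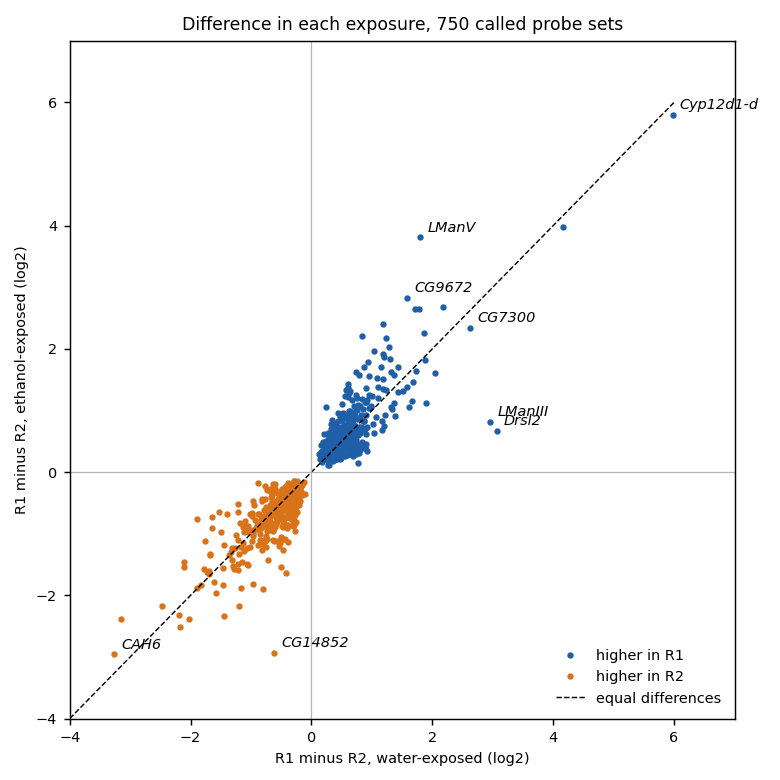
Difference between R1 and R2 (log2) in ethanol-exposed larvae against that in water-exposed larvae for the 750 probe sets called over both exposures, with the dashed line marking equal differences. All points lie below 0 on both axes or above 0 on both axes; CG14852 (-0.61 and -2.94), LManIII (2.96 and 0.81) and Drsl2 (3.07 and 0.67) lie well off the line.

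To place R1 and R2 among the 6 populations, limma fitted to all 34 arrays compared each of them with the mean of the other 4. R1 differed from that mean for 1134 of 9729 probe sets (11.7%) and R2 for 1126 (11.6%). With the day 5 labels of E and M interchanged, these counts were 1425 and 1458. Of 741 probe sets called between R1 and R2 and tested here, R1 lay further from the others in 365 and R2 in 376. The mean of the others lay between R1 and R2 in 553 (74.6%, beside 36.5% of all probe sets tested). These comparisons use the same R1 and R2 arrays as the choice of the genes, so they describe and do not add support.

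For several genes R2 was the extreme population. On days 1 and 2 mthl8 averaged 3.75 in R2 and 5.80, 6.20, 6.11, 6.29 and 5.96 in R1, E1, E2, M1 and M2. Over all days R2 was below the mean of the other regimes' populations by -2.04 ± 0.20 (adjusted p = 1.11e-07), and R1 differed from that mean by -0.22 ± 0.20 (adjusted p = 0.551). CG32379 was likewise low in R2 at 4.07, with 5.45 to 6.70 elsewhere, and Daao2 was at 5.41 with 6.68 to 7.63 elsewhere. Grl43a averaged 4.34 in R2 and 1.76 to 2.98 elsewhere (2.16 ± 0.20 above the other regimes, adjusted p = 3.32e-08, and -0.16 ± 0.20 for R1). The levels elsewhere lay below the detection level, so this difference is not exact. GstD5 was highest in R2 as well, at 5.13 against 1.93 to 4.07.

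For others R1 was the extreme population. CG10916 averaged 4.67 in R1 and 5.43 to 7.53 in the rest, and Ldsdh1 averaged 6.85 in R1 and 7.96 to 8.94 in the rest. Alp7 averaged 6.96 in R1 and 8.02 to 11.00 in the rest. R1 was below the other regimes by -1.93 ± 0.16, -1.52 ± 0.15 and -2.39 ± 0.39 for these 3 genes, and R2 differed from them by -0.10 ± 0.16, 0.37 ± 0.15 and -0.50 ± 0.39. CG7300 averaged 10.00 in R1, above 6.75 to 8.99 in the rest, and R1 exceeded the other regimes by 2.09 ± 0.22 (adjusted p = 3.87e-07).

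For other genes, low and high levels recurred across regimes. Cyp12d1-d averaged 9.37 in R1, 8.58 in E2, 8.19 in M1 and 9.56 in M2, but 3.42 in R2 and 2.86 in E1. NLaz averaged 5.88, 6.53 and 6.47 in R1, E1 and M1 and 7.96, 8.78 and 8.81 in R2, E2 and M2. CAH6 followed a like split, with 3.56, 3.55 and 4.38 in R1, E1 and M1 and 6.55, 6.35 and 5.53 in R2, E2 and M2. LManV was at 9.26 in R1 and 9.88 in E1 and between 6.06 and 7.13 in the other 4 populations. LManV read lower in ethanol in both control populations, so its levels in M1 and M2 may also reflect their unequal mix of exposures. For these genes the gap between the control populations recurred between populations of another regime.

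**Figure D5:**
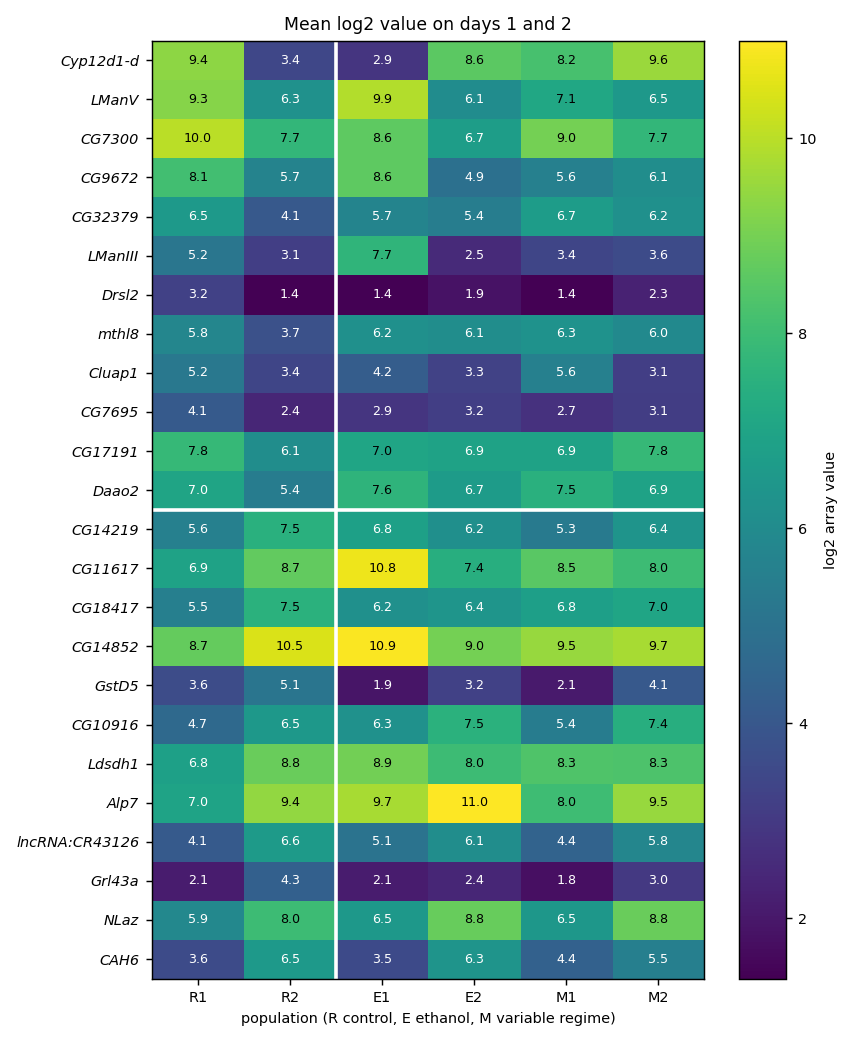
Mean log2 value on days 1 and 2 in each of the 6 populations, from 4 arrays each for R1, R2, E1 and E2 and 3 each for M1 and M2, for the 12 genes with the largest R1 excess (upper block) and the 12 with the largest R2 excess (lower block). M1 lacks the water array of day 2 and M2 the ethanol array of day 1, so exposure is not balanced in their means. Grl43a is at 4.34 in R2 and at most 2.98 elsewhere, below the detection level. NLaz and CAH6 are low in R1, E1 and M1 and high in R2, E2 and M2.

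The divergence of R1 and R2 can be set beside that of the other sister populations in the same fit of 34 arrays. There 787 probe sets differed between R1 and R2 (8.09%), 1071 between E1 and E2 (11.0%) and 357 between M1 and M2 (3.67%). With the day 5 labels of E and M interchanged, the counts were 1015, 1652 and 633. M1 and M2 have 5 arrays each and the others 6. The median size of difference over all probe sets was 0.101 for R1 and R2, 0.119 for E1 and E2 and 0.0968 for M1 and M2. With 1 sister pair in each regime, a difference in divergence between regimes could not be tested. Of the calls between R1 and R2, 241 were also called between E1 and E2, which is 30.6% of the former and 22.5% of the latter. Likewise 126 were also called between M1 and M2, 16.0% of the former and 35.3% of the latter. With the day 5 labels of E and M interchanged, the shared calls were 389 with E1 and E2 (38.3% and 23.5%) and 257 with M1 and M2 (25.3% and 40.6%). Of 59 P450 genes tested in this fit, 16 were called between R1 and R2 (27.1%), 18 between E1 and E2 (30.5%) and 8 between M1 and M2 (13.6%). The count between R1 and R2 was 19 with the day 5 labels of E and M interchanged, and those of the others were 32 and 12.

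The differing genes were spread over the genome. On the X chromosome 84 of 1228 tested genes were called (6.84%), and the shares on the large autosomal arms lay between 7.24% and 8.63%. None of 57 genes on chromosome 4 was called. Of 610 called genes placed in chromosomal order, 141 had a called gene as the nearest tested neighbour on either side (23.1%), beside 14.6% of all genes so ordered. Of 75 adjacent pairs of called genes, 46 differed in the same direction. There were 8 runs of 3 or more called genes, and the longest, with 4, was CG7300, Lip1, CG6415 and CG6443, all higher in R1 by 2.48, 0.70, 0.98 and 0.55. CG33282, CG3285 and CG15408 formed a run with all 3 higher in R2, at -1.27, -0.85 and -1.01. In another run Dh31, a diuretic hormone gene, was higher in R2 (-1.14) and its neighbours Bace and CG13096 higher in R1 (0.52 and 0.46).

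Where a gene had several probe sets they did not always give the same result. Of 33 called genes with further tested probe sets, 7 had another called in the same direction, none had one called in the opposite direction, and in 24 all further sets had the same sign. The gene be, chosen after its values were seen, was the sharpest case: a probe set averaging 6.00 in R1 and 8.26 in R2 differed by -2.26 ± 0.09, and another averaging 10.80 and 10.72 differed by 0.07 ± 0.06. Likewise smp-30, chosen the same way, differed by 1.70 ± 0.22 on one probe set and 0.29 ± 0.11 on another. Of 244 tested probe sets that list several genes 26 were called (10.7%), among them one that lists the cuticle protein genes Ccp84Aa and Ccp84Ab, at 1.42 ± 0.13 with R1 at 6.00 to 7.05 and R2 at 4.65 to 5.48. Of 871 probe sets without a listed gene 73 were called (8.38%). An array value depends on the amount of RNA and on its match to the probes, and between populations these cannot be told apart here.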

How the data were processed

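Gene expression was measured with Affymetrix arrays. Values were deposited as log2 per probe set. The submitters' processing notes name GCRMA and affy, with no version or annotation build given in the sources used here. The labels give 35 hybridised samples, and 34 arrays were analysed here. Intensities were not used, so the number of arrays limits the precision. Gene names come from the platform annotation. Of 18769 probe sets, 13647 list 1 gene, 402 several and 4720 none, and 13544 matched the RefSeq table (Release 6). Where a gene had several, the set with the highest mean over the 12 control arrays stands for it.

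With R 4.3.3 and limma 3.58.1, the 12 control arrays were fitted with the pair (exposure and day number) as a block, an intensity trend and two-sided tests adjusted over all 9588 probe sets. Exposure-specific differences and the interaction came from the same fit with a population by exposure term. Comparisons with other populations used the 34 arrays, 12 means of population and exposure, and the day (9729 probe sets at 4 or more on at least 5 arrays). The pairing comes from the labels, which give 3 extraction days, and each day held 1 array of R1 and 1 of R2 per exposure. Deviations of paired arrays from the mean of their population and exposure correlated at 0.154 to 0.562, and those of the same day at 0.352 on average. The value across days, -0.176, follows from taking out these means and adds nothing to that of the same day. Code was tested on simulated data.

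The named genes were the 12 largest calls in each direction with the same sign in 6 of 6 pairs, the 5 smallest p-values, the 5 largest calls or smallest p-values per exposure and for the interaction, up to 4 members per gene list, and Adh, Adhr, AcCoAS, Lip3, sug, Prat2 and Sgs5. The arrays, lists and rules were chosen with earlier results of these data known. Lists are described by counts, without a set test. The alternatives were filters, centring, quantile normalization, no trend, robust moderation, no replicate block, additive day, all 34 arrays, 1 probe set per gene, and days or pairs left out. The interchange of the day 5 labels, the omission of the pair with the array that stood apart and separate fits per exposure were added after seeing the data.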

Additional observations from a re-analysis of the deposited data

Results flagged for a closer look

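In 30 groups of 6 values, namely the 6 pair differences of the 24 genes with the largest differences and 3 quality measures of the 6 arrays of each population, 5 held a value whose gap to the nearest, as a share of the group's range, exceeded Dixon's critical value for 6 values. Chance alone sets apart about 1 in 20 such groups. The R1 minus R2 difference of LManV was 5.69 in the ethanol pair of day 1, with 3.06 as the next value. That of Daao2 in the same pair was 3.19, with 1.47 next. That of mthl8 in the water pair of day 1 was 3.03, with 1.96 next. The R2 array of ethanol-exposed larvae of day 1 had a mean correlation with the other control arrays of 0.962, with 0.976 next among the R2 arrays, and it is the R2 member of the pair in which LManV and Daao2 stood apart. The R2 array of water-exposed larvae of day 5 had 9273 probe sets at 4 or more, with 9330 next.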

How the results depend on the processing

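The number of probe sets called between R1 and R2, 750 as reported, lay between 547 and 842 under other filters, normalizations, moderation, an additive day, all 34 arrays or 1 probe set per gene. Without the replicate block it was 401, with 83 in water and 146 in ethanol, and the comparisons with the other 4 populations gave 643 for R1 and 610 for R2, E1 against E2 450 and M1 against M2 170. Leaving out a day or a pair gave 272 to 822 for R1 against R2, 53 to 149 in water, 91 to 185 in ethanol, 0 to 1 for the interaction, 332 to 1124 and 452 to 767 for R1 and R2 against the other 4, 179 to 1209 for E1 against E2 and 91 to 258 for M1 against M2. Single days gave 0 (day 1), 1093 (day 2) and 401 (day 5). Requiring a mean of 6 or more gave 153 in water, the ethanol count without the pair of the R2 array that stood apart was 271, and exposures fitted alone gave 398 in water and 172 in ethanol. E1 against E2 gave 702 from its 6 pairs alone and M1 against M2 gave 216 from its complete pairs. The interchange of day 5 labels gave 1652 and 633 for them, and 1425 and 1458 for R1 and R2 against the other 4. The causes were not tested, beyond the fewer arrays or probe sets in some settings. Of 79 called named genes none changed sign; 38 lost their call without day 2, 29 without day 5, 15 without day 1, 26 without the block and all 79 within day 1. Of the 24 largest, 6, 4, 1 and 1 did so without day 2, day 5, day 1 and the block, and 6 under robust moderation.

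Among the named genes, signs changed only for genes uncalled in the reported fit. AcCoAS, at 0.00 as reported, was -0.005 with centring, -0.011 with quantile normalization, -0.139 within day 5, -0.047 in the 4 pairs that are complete in M1 and M2, -0.035 to 0.07 without a day or pair, and -0.008 without the pair of the array that stood apart. Lip3, at -0.25, was called at -0.818 within day 2 (adjusted p = 0.0085), was 0.438 within day 5, 0.019 in those 4 pairs and -0.601 to 0.027 without a day or pair. Prat2, at 0.18, was -0.29 within day 2, -0.072 without the pair of the array that stood apart and -0.072 to 0.443 without a day or pair. Sgs5, at 0.14, was -0.439 within day 2 and -0.074 to 0.435 without a day or pair.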
